A study of Mus musculus with 12 samples.

Results

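The EphA receptors and their ephrin-A ligands were read in sorted auditory neurons of mouse embryos, with and without a conditional Isl1 allele. The 10 members are the table rows whose Ensembl identifiers carry the symbols Epha3, Epha4, Epha5, Epha7, Epha8 and Efna1 to Efna5, and they make up 10 of 25674 rows. All 10 had a row, and 9 passed the filter on low counts, since Efna1 did not. The remaining EphA genes Epha1, Epha2, Epha6 and Epha10 did not pass it either.

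Each library was made from 100 neurons positive for the red reporter tdTomato, sorted from the spiral ganglia of both inner ears of 1 embryo at embryonic day 14.5. Control embryos carried the Neurod1Cre transgene and the Rosa26tdTOM (Ai14) reporter. The other group carried both of these and Isl1loxP/loxP, in which Cre recombinase made under Neurod1 control removes the floxed segment of Isl1, a LIM homeobox transcription factor gene. Both groups therefore carried the Cre transgene and the reporter, on a mixed C57BL/6 and sv129 background, and embryos of either sex came from several litters that the labels do not assign to samples. There were 6 libraries per group. One label tag numbers them as technical replicates, whereas the series text calls them biological replicates. If they did not come from separate embryos, the p-values measure only technical spread.

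Eph receptors are tyrosine kinases on the cell surface, and ephrin-A ligands are held on the membrane of neighbouring cells by a lipid anchor, so the signal passes at contact and often makes a growing axon turn away or detach. The receptor signals forward into its own cell, and the ligand can signal in reverse through partner receptors in its membrane. Where 1 axon carries both, the ligand can dampen the receptor beside it. In the cochlea, EphA4 and ephrin-A5 are known for sorting the fibres of spiral ganglion neurons between inner and outer hair cells, and EphA7 for the growth of these fibres.

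Transcripts of 3 receptor genes of this family, Epha3, Epha4 and Epha5, were lower in the libraries labelled Isl1CKO, and those of the receptor gene Epha7 and the ligand gene Efna5 were higher. Of the 9 members tested, 5 were called, meaning that the quasi-likelihood test of edgeR gave an adjusted p (Benjamini-Hochberg) under 0.05. Among all 14813 genes tested, 10.2% were called, with 5.19% lower and 5.01% higher. By role, 4 of 5 receptor genes were called, 3 lower and 1 higher, and 1 of 4 tested ligand genes, which was higher. The median log2 fold change was -1.11 over the 5 receptor genes and 1.24 over the 4 ligand genes, against 0.0045 over all tested genes. The ligand median lies between Efna4 at 0.55 and Efna3 at 1.92, neither of which was called. Efna2, at -0.18, was not called either. The members were chosen with earlier results of these data known, so these shares describe them and are not a test of the family.

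Libraries held between 11895603 and 13857480 counts, and 3 counts, taken as the limit of detection, corresponded to 0.219 to 0.250 CPM (counts relative to the scaled size of the library). Isl1 ranged from 1050 to 1589 CPM in the libraries labelled Isl1CKO and from 1171 to 1777 CPM in controls, and it was not called (log2 fold change -0.15 ± 0.11 SE, edgeR adjusted p = 0.460). A count that covers all of Isl1 does not tell a transcript that lacks the floxed segment from an intact one, so the genotype rests on the labels. Although the labels describe 1 embryo per sample, the libraries labelled Isl1CKO 2, 3 and 5 held transcripts of both sexes, with Xist at 62.9 to 132 CPM and a mean of 4 Y-linked genes at 35.7 to 87.3 CPM, and each called member is therefore also given for the 9 remaining libraries. The neuron markers Tubb3, Snap25 and Elavl3 averaged 3209.6, 626 and 617 CPM in controls and 3940.0, 635 and 627 CPM in the libraries labelled Isl1CKO, and none of these 3 was called. Over all 12 neuron markers the mean log2(CPM + 1) was 9.99 ± 0.159 in controls and 9.30 ± 0.421 in the libraries labelled Isl1CKO (SD, n = 6; exact 2-sided permutation p = 0.00866, adjusted p = 0.0216 over 8 marker lists). Their summed level was 17257 to 19525 CPM in controls and 14543 to 16838 CPM in the other group. Nefl, Nefm, Gata3, Elavl4 and Mapt were called lower, and Neurod1 and Stmn2 were called higher.

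The upstream sequences of Epha5 and Efna5 are shown because these members had the smallest p-values of the family and moved in opposite directions. Both are the 250 bases before the RefSeq transcription start on GRCm38.p6, printed 5′ to 3′ on the strand of the gene, which is the minus strand for both. Epha5 is at chr5:84417383-84417632 and Efna5 at chr17:62881318-62881567. Capitals mark TAAT on either strand (read as TAAT or ATTA), the core that many homeodomain proteins, ISL1 and LHX2 among them, recognise.
Epha5: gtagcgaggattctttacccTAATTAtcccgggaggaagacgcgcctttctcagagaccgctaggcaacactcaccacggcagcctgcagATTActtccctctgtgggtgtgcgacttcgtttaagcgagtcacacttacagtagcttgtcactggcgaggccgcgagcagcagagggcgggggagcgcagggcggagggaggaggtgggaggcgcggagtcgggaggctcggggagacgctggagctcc
Efna5: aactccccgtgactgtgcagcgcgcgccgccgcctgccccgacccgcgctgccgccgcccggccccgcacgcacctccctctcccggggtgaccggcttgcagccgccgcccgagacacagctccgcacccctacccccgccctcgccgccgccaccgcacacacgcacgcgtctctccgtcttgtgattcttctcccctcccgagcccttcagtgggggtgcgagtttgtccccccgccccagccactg

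The Epha5 window held 3 matches to TAAT on the 2 strands, of which a pair overlap in the palindrome TAATTA, and the Efna5 window held 0. TAAT occurred in 54.9% of 32851 RefSeq windows of this length and TAATTA in 4.84%. Windows of Epha3 and Epha4 held 0 matches to TAAT, and that of Epha7 held 1 or 2, depending on which of its annotated starts was taken. Among members that were not called, Efna1 held 2 matches, also within a TAATTA, or 0, depending on the start. The Efna4 window held 1, and those of Efna2, Efna3 and Epha8 held 0. RefSeq windows were matched for all 10 members. The Efna5 window was 74.8% G and C and the Epha5 window 62.4%, against a median of 52.4% over all windows. A match is only a string of letters, and none says nothing of distant sites.

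Epha5, the most abundant receptor gene of the family in control neurons, had the largest fall of the called receptor genes. Epha5 (ENSMUSG00000029245, chromosome 5, 84054761 to 84417382, minus strand) was at 595 CPM in the lowest control library, 716 at the median and 816 in the highest. In the libraries labelled Isl1CKO it was at 147, 185 and 211 CPM. The groups lay far apart, and the libraries within each were close together, with coefficients of variation of 11.3% and 11.7%. The mean went from 709.8 ± 80.0 to 185 ± 21.5 CPM (SD, n = 6), which was 3.85-fold lower with a 95% interval of 3.33 to 4.44 (edgeR adjusted p = 1.60e-08). It had the third smallest p of all tested genes. Over the 9 remaining libraries, the log2 fold change was -1.89 in place of -1.94.

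Epha4, which unlike most EphA receptors also binds ephrin-B ligands, was lower in all 6 libraries labelled Isl1CKO. Epha4 (ENSMUSG00000026235, chromosome 1, 77367185 to 77515088, minus strand) was at 104, 154 and 189.8 CPM in the lowest, median and highest control library. It was at 36.8, 63.2 and 71.4 CPM in the libraries labelled Isl1CKO. The groups did not overlap, and the mean was 2.62-fold lower, with a 95% interval of 2.01 to 3.41 (151 ± 29.6 to 57.7 ± 14.5 CPM, SD, n = 6; edgeR adjusted p = 1.19e-04). Over the 9 remaining libraries, the log2 fold change was -1.37 in place of -1.39.

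Epha3, a receptor that binds ephrin-A5 with high affinity, was also lower, but less uniformly. Epha3 (ENSMUSG00000052504, chromosome 16, 63543534 to 63864175, minus strand) was at 56.3, 82.7 and 115 CPM in the lowest, median and highest control library and at 22.9, 31.6 and 68.5 CPM in the libraries labelled Isl1CKO. The library labelled Isl1CKO 1, at 68.5 CPM, lay within the control range, and the other 5 lay below it. The mean was 2.15-fold lower, with a 95% interval of 1.48 to 3.14 (84.0 ± 23.4 to 39.0 ± 16.9 CPM, SD, n = 6; edgeR adjusted p = 0.0109). Over the 9 libraries with transcripts of 1 sex it missed the threshold (log2 fold change -0.96, edgeR adjusted p = 0.122). It also missed it with Schwann cell and macrophage marker levels as covariates (-1.19, edgeR adjusted p = 0.0545).

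Epha7 moved the other way. This receptor gene (ENSMUSG00000028289, chromosome 4, 28813131 to 28967499, plus strand) was at 204, 222 and 282 CPM in the lowest, median and highest control library. It was at 279, 399.8 and 425 CPM in the libraries labelled Isl1CKO. Only control 4, the highest control at 282 CPM, reached the lowest library of the other group, labelled Isl1CKO 5, and the other 5 lay above all controls. The mean was 1.61-fold higher, with a 95% interval of 1.36 to 1.90 (229 ± 28.3 to 368 ± 61.3 CPM, SD, n = 6; edgeR adjusted p = 0.00114). Over the 9 remaining libraries, the log2 fold change was 0.67 in place of 0.68.

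Epha8 was the lowest of the 5 receptor genes, and its libraries were widely scattered, with a coefficient of variation of 76.5% in controls. Epha8 (chromosome 4, 136929419 to 136956816, minus strand) was at 1.26 to 11.5 CPM in controls and 3.31 to 11.0 CPM in the libraries labelled Isl1CKO. The ratio was 1.09 with a 95% interval of 0.485 to 2.44 (edgeR adjusted p = 0.924), so these libraries do not exclude a change of a size within that interval. Its sign turned in 4 of the 12 fits that each left out 1 library. Epha1, Epha2, Epha6 and Epha10 reached at most 16, 3, 145 and 42 counts in any library and were not tested.

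**Figure D1:**
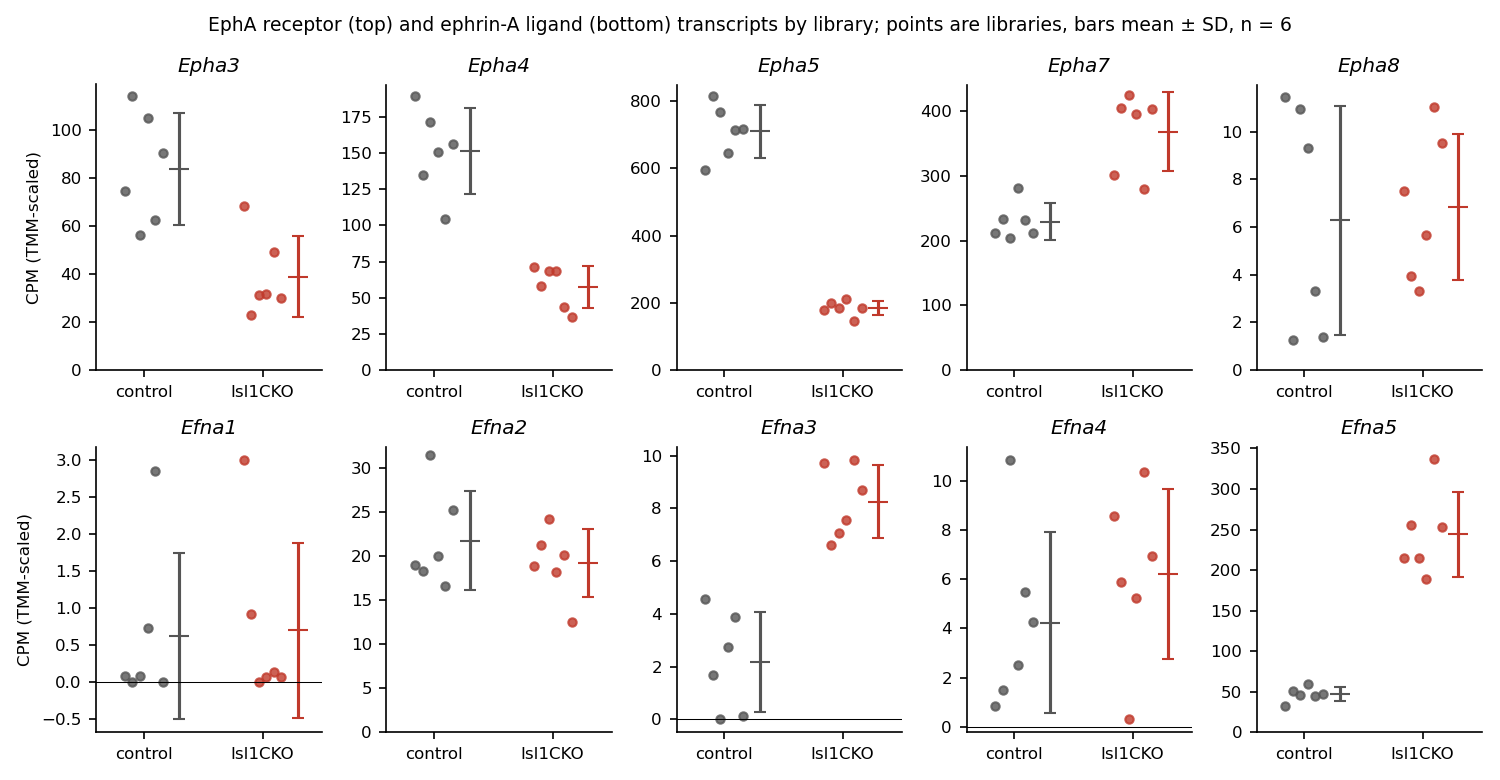
Level of each member in every library, in CPM on a linear axis, with receptor genes in the top row and ligand genes in the bottom row. Points are libraries and bars are the mean ± SD of 6 libraries. Epha4, Epha5, Efna3 and Efna5 show no overlap between the groups, as did 6.78% of all tested genes. Epha7 overlaps only through control 4.

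Among the ligand genes, Efna5 had the highest mean CPM in control neurons and was the only one called. Ephrin-A5 binds most EphA receptors and can also bind EphB2. Efna5 (ENSMUSG00000048915, chromosome 17, 62604184 to 62881317, minus strand) was at 32.4, 47.0 and 59.6 CPM in the lowest, median and highest control library. It was at 189, 234 and 337 CPM in the libraries labelled Isl1CKO, so the groups lay far apart. The mean was 5.19-fold higher, with a 95% interval of 4.11 to 6.54 (47.0 ± 8.85 to 244 ± 52.0 CPM, SD, n = 6; edgeR adjusted p = 2.19e-07). Over the 9 remaining libraries, the log2 fold change was 2.21 in place of 2.37.

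Mesenchyme surrounds the ganglion, and the mean of its marker list differed between the groups, although single markers moved both ways. All 10 mesenchyme markers had a row, and their summed level was 38.6 to 84.5 CPM in controls and 72.0 to 122 CPM in the libraries labelled Isl1CKO. Their mean log2(CPM + 1) was 1.21 ± 0.159 and 2.02 ± 0.258 (SD, n = 6; exact 2-sided permutation p = 0.00216, adjusted p = 0.00866), where 0.00216 is the smallest p that 6 against 6 libraries allow. Tbx18 and Col3a1 were called higher in edgeR's test, with means of 1.09 and 39.5 CPM for Tbx18 and 2.66 and 14.1 CPM for Col3a1. Col1a2 averaged 1.30 and 4.67 CPM, Prrx1 0.337 and 4.72 CPM, Twist1 1.13 and 0.0129 CPM and Pou3f4 52.9 and 27.4 CPM. By these means, Pou3f4 was the largest part of the sum in controls and Tbx18 in the other group. Col1a1, Pdgfra, Dcn and Lum averaged under 1 CPM in both groups. The part of mesenchymal RNA in the Efna5 difference was not tested. Schwann cell markers summed to 31.9 to 186 CPM in controls and 35.0 to 260.1 CPM in the libraries labelled Isl1CKO. Macrophage markers summed to 1.70 to 383 and 0.875 to 735 CPM. With both of these levels as covariates, the log2 fold change was 2.49 for Efna5 and -1.90 for Epha5. Endothelial markers summed to 0.366 to 1.48 CPM in controls and 0.365 to 30.0 CPM in the other group, and those of otic epithelium to 1.17 to 3.32 and 2.44 to 4.50 CPM. The mean log2(CPM + 1) of the otic epithelium list was 0.356 in controls and 0.562 in the other group (exact 2-sided permutation p = 0.0108, adjusted p = 0.0216). Hair cell markers fell from 191 to 454 CPM in sum to 24.5 to 86.6 CPM, chiefly through Pvalb, which neurons also express, and Ccer2. That list also passed (exact 2-sided permutation p = 0.00216, adjusted p = 0.00866). The 2 erythroid markers with a row summed to 1.41 to 4.81 and 1.01 to 5.87 CPM. The Schwann cell, macrophage, endothelial and erythroid lists did not pass the permutation test. In libraries of pooled cells, fewer cells of a type and less RNA per cell cannot be told apart.

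Efna2, the other ligand gene well above the limit of detection in controls, did not pass the test. Efna2 (chromosome 10, 80179482 to 80190010, plus strand) was at 16.6, 19.5 and 31.5 CPM in the lowest, median and highest control library and at 12.6, 19.5 and 24.2 CPM in the libraries labelled Isl1CKO. The groups overlapped almost fully, and the ratio was 0.883 with a 95% interval of 0.657 to 1.19 (edgeR adjusted p = 0.651). A fall of more than 1.52-fold lay outside that interval.

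Efna1, Efna3 and Efna4 lie close together on chromosome 3, all on the minus strand, between 89271733 and 89338028. Efna3 was at 0 to 4.57 CPM in controls, with a median of 2.22, and at 6.60 to 9.85 CPM in the libraries labelled Isl1CKO, with a median of 8.12. All 6 of the latter lay above all controls. Among all tested genes, 6.78% had groups that did not overlap, in either direction. Its ratio of 3.79 had a 95% interval of 1.31 to 11.0 and an edgeR adjusted p of 0.113, which misses the threshold, whereas the DESeq2 Wald test gave an adjusted p of 0.0302 and limma-voom 0.0245. Over all 22 alternative fits its adjusted p ran from 0.0245 to 0.317. Efna4 was at 0.831 to 10.8 CPM and 0.301 to 10.4 CPM, with a ratio of 1.47 and a 95% interval of 0.551 to 3.91 (edgeR adjusted p = 0.673). Efna1 was at or under 3 counts in 4 libraries of each group and reached at most 38 counts, in the library labelled Isl1CKO 1. Efna3 and Efna4 each share exon sequence with an antisense gene, Gm15998 and 4731419I09Rik, and the use of strand in counting is not given in the sources used here, so their counts are uncertain.

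**Figure D2:**
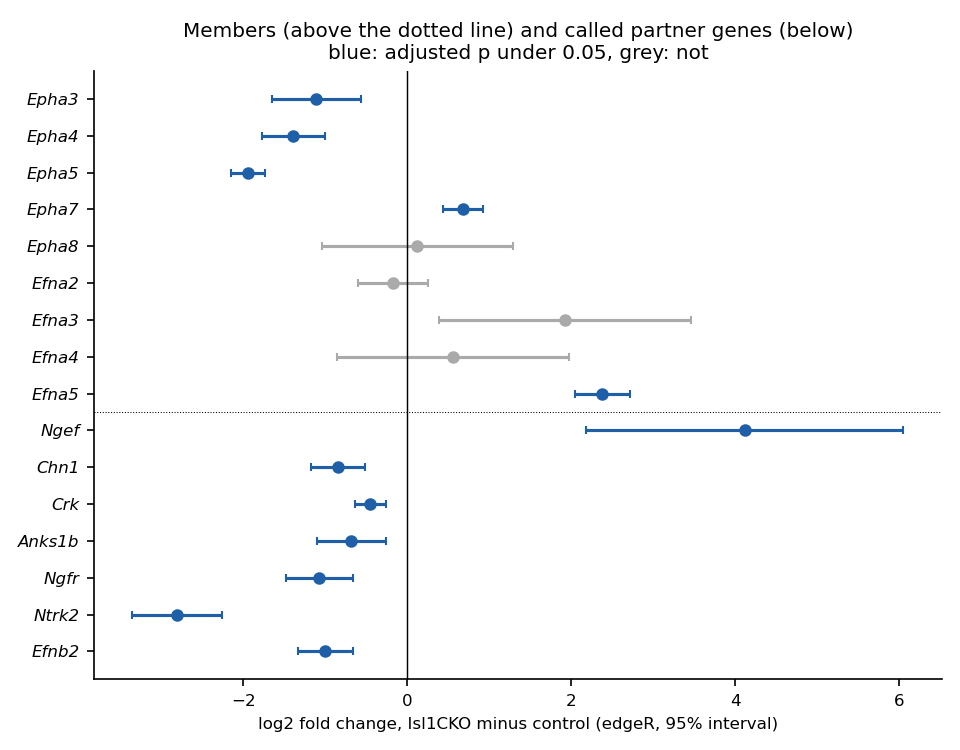
Log2 fold change of the 9 tested members and of the partner genes that were called, as libraries labelled Isl1CKO minus controls, with 95% intervals from edgeR. Blue points passed the adjusted threshold of 0.05 and grey points did not. Epha3, Epha4 and Epha5 lie left of 0, and Epha7 and Efna5 lie right of it.

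Levels of different genes were compared as CPM per kilobase of annotated exon. In controls the order of the receptors was Epha5 at 42.4 ± 4.78, Epha7 at 23.2 ± 2.87, Epha4 at 18.8 ± 3.68, Epha3 at 9.67 ± 2.69 and Epha8 at 1.33 ± 1.02 (SD, n = 6). The mean ± SD ranges of Epha7 and Epha4 overlapped, and the other neighbours were further apart. In the libraries labelled Isl1CKO, Epha7 came first at 37.3 ± 6.21, ahead of Epha5 at 11.0 ± 1.29, Epha4 at 7.17 ± 1.80, Epha3 at 4.49 ± 1.94 and Epha8 at 1.45 ± 0.652. Epha4 and Epha3 overlapped there. Epha7 thus changed places with Epha5.

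The make-up of the receptor family shifted with it. Epha5 held 44.5% ± 4.63 of the length-scaled sum of the 5 receptor genes in controls and 17.9% ± 0.945 in the libraries labelled Isl1CKO (SD, n = 6). Epha7 held 24.3% ± 2.78 and 60.4% ± 5.75. The lowest Epha7 share in the latter group, 51.2%, was above the highest control share, 28.5%. The share of Epha4 was 19.7% ± 3.94 and 11.6% ± 2.54, and that of Epha3 was 10.1% ± 2.36 and 7.52% ± 3.73. Scaled by the longest transcript in place of all exons, the mean shares were 56.6% and 25.9% for Epha5 and 19.9% and 55.9% for Epha7. The Epha4 shares, which did not overlap between the groups with all exons, then overlapped, with means of 14.0% and 9.36%. The log2 ratio of Epha7 to Epha4 ran from -0.13 to 0.86 in controls and from 1.78 to 3.16 in the libraries labelled Isl1CKO.

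Among the ligands in controls, Efna5 at 11.7 ± 2.19 and Efna2 at 10.2 ± 2.62 CPM per kilobase did not differ beyond their spread, followed by Efna4 at 2.65 ± 2.30, Efna3 at 0.893 ± 0.780 and Efna1 at 0.343 ± 0.616 (SD, n = 6). Those last 3 overlapped. In the libraries labelled Isl1CKO, Efna5 at 60.5 ± 12.9 stood far above Efna2 at 9.02 ± 1.82, Efna4 at 3.88 ± 2.15 and Efna3 at 3.39 ± 0.569. Efna5 held 45.7% ± 7.84 of the ligand sum in controls and 78.1% ± 3.30 in the libraries labelled Isl1CKO.

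**Figure D3:**
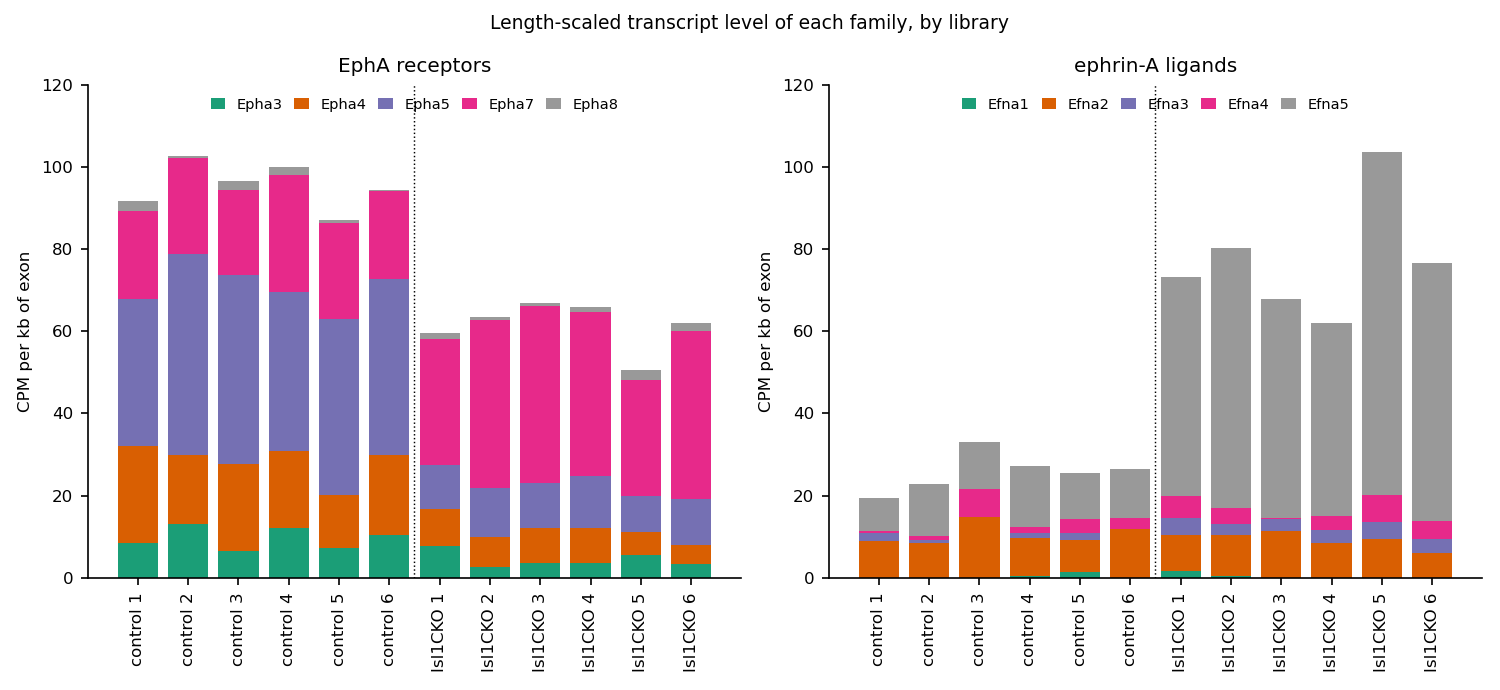
Stacked CPM per kilobase of exon of the 5 receptor genes (left) and the 5 ligand genes (right) in each library, controls left of the dotted line. The receptor bars are lower and mostly Epha7 in the libraries labelled Isl1CKO, and the ligand bars are higher and mostly Efna5.

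Receptor and ligand transcripts thus moved in opposite directions in sum. The receptor sum was 87.1 to 102.5 CPM per kilobase in controls and 50.5 to 66.7 in the libraries labelled Isl1CKO, and the ligand sum was 19.4 to 33.0 and 61.9 to 103.6. Neither pair of ranges overlapped. The log2 ratio of the ligand sum to the receptor sum averaged -1.91 ± 0.258 in controls and 0.32 ± 0.394 in the libraries labelled Isl1CKO (SD, n = 6), a difference of 2.22. With the length of the longest transcript in place of all exons, the averages were -2.74 and -0.34. The difference in this ratio between the groups is therefore similar under both, but whether ligand exceeds receptor in the libraries labelled Isl1CKO depends on the length used. The log2 receptor sum differed by -0.64 between the groups, and by -0.82 to -0.58 over the alternatives. The choice of length matters because the exons of Epha5 span 16739 bases in all transcripts together.

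The ratio of Efna5 to Epha5 follows from the calls of both genes, so it restates this shift for the leading pair and is no separate result. It was 0.226, 0.259, 0.249, 0.383, 0.264 and 0.278 in controls 1 to 6, per length. It was 4.97, 5.32, 4.86, 3.72, 9.48 and 5.65 in the libraries labelled Isl1CKO 1 to 6. Every control had less Efna5 than Epha5 per length, and every library of the other group had more, which also held with the longest transcript length (0.0989 to 0.168 and 1.63 to 4.15). The library labelled Isl1CKO 5 was the most extreme, with both the highest Efna5 and the lowest Epha5. It was among the libraries with transcripts of both sexes. The family sums, shares and ratios were not repeated without the libraries labelled Isl1CKO 2, 3 and 5 together.

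Within a group, the levels of Epha5 and Efna5 were not related by a test that passed the threshold. In controls Pearson's r of log2(CPM + 1) was 0.450 (exact permutation p = 0.367, adjusted p = 0.367 over the 2 groups) and Spearman's rank correlation was 0.371 (exact permutation p = 0.497, adjusted p = 0.497). In the libraries labelled Isl1CKO r was -0.808 (exact permutation p = 0.0722, adjusted p = 0.144) and Spearman's rank correlation was -0.486 (exact permutation p = 0.356, adjusted p = 0.497). Without the 2 libraries farthest from the median of Epha5, r was -0.889 in controls and 0.771 in the other group. The sign of both therefore rested on those libraries, and no pooled r was computed because the groups form separate clusters.

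**Figure D4:**
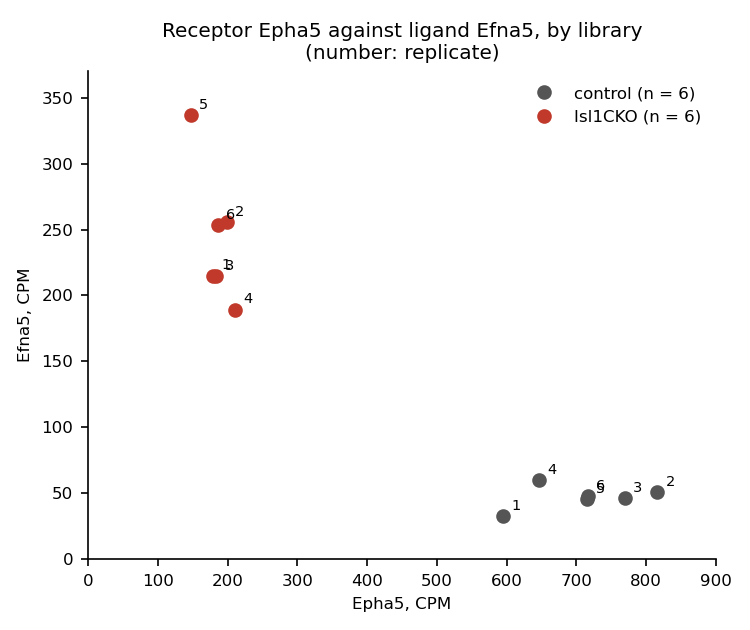
Efna5 against Epha5 in CPM, 1 point per library with its replicate number. Controls lie at high Epha5 and low Efna5 and libraries labelled Isl1CKO at low Epha5 and high Efna5, with Isl1CKO 5 at the top left.

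Inside the cell, the EphA signal passes through adaptors, kinases and exchange factors. Of 30 listed genes of EphA forward signalling, 28 were tested and 4 were called (Chn1, Crk and Anks1b lower, Ngef higher). Their median on the log2 scale was 0.011, against 0.0045 over all tested genes, and 14.3% were called, against 10.2% of all tested genes. Chn1, which encodes a Rac-inactivating protein that EphA4 uses to collapse growth cones, was lower at 87.6 to 174 CPM against 177 to 266 CPM in controls (log2 fold change -0.85 ± 0.15 SE, edgeR adjusted p = 0.00215). Its counts are uncertain because it shares exon sequence with the antisense genes Chn1os1 and Chn1os3. The adaptor gene Crk was lower at 56.8 to 67.8 CPM against 77.5 to 94.4 CPM (-0.45 ± 0.09, edgeR adjusted p = 0.00377), which missed the threshold over the 9 libraries with transcripts of 1 sex (edgeR adjusted p = 0.0601).

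Ngef encodes ephexin, a guanine nucleotide exchange factor that binds EphA receptors. It had 13 to 58 counts in the libraries labelled Isl1CKO, whereas controls 2 to 5 had 0 and controls 1 and 6 had 7 and 3 (edgeR adjusted p = 0.00834). At 2.43 ± 1.13 CPM (SD, n = 6) it stayed far below Chn1. Its counts are uncertain too, because it shares exon sequence with Neu2 on the opposite strand. Anks1b, which encodes a scaffold with domains of the kind that bind Eph receptors, was lower by a smaller margin (29.4 ± 7.89 to 18.3 ± 2.53 CPM, SD, n = 6; log2 fold change -0.68 ± 0.19 SE; edgeR adjusted p = 0.0380). That call was lost in 13 alternative fits, among them 9 of the 12 that left out 1 library and the fit with the replicate number as a block (edgeR adjusted p = 0.0822). The 24 forward signalling genes that were not called include Vav3, at 136 ± 36.4 and 135 ± 40.3 CPM, and the kinase gene Fyn, at 28.5 ± 13.2 and 44.8 ± 7.02 CPM (SD, n = 6; edgeR adjusted p of 0.997 and 0.101).

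None of the 5 tested genes of ligand shedding and receptor dephosphorylation was called in edgeR's test, where 10.2% of all tested genes were called. So few genes cannot show a departure from that share. Adam10, whose protease cuts ephrin-A ligands, was at 179.8 ± 25.7 and 173 ± 39.4 CPM (SD, n = 6), which differed by -0.055 ± 0.15 SE on the log2 scale (edgeR adjusted p = 0.872). The phosphatase gene Acp1 had groups that did not overlap, at 33.2 to 39.1 CPM in controls and 39.3 to 44.0 CPM in the other group, but did not pass (edgeR adjusted p = 0.118). It was singled out after its values were seen, and 6.78% of all tested genes had groups that did not overlap. The counts of Acp1 are also uncertain, because it shares exon sequence with Alkal2 on the opposite strand.

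Ephrin-A ligands lack a cytoplasmic part and signal in reverse through partners, of which 3 were listed and 2 were lower, where 5.19% of all tested genes were lower. Ngfr, the p75 neurotrophin receptor, was at 168, 233 and 268 CPM in the lowest, median and highest control library and at 56.7, 104 and 146 CPM in the libraries labelled Isl1CKO. The groups did not overlap (log2 fold change -1.07 ± 0.19 SE, edgeR adjusted p = 0.00177). Ntrk2, which encodes TrkB, went from 377 ± 65.4 to 53.9 ± 24.4 CPM (SD, n = 6; log2 fold change -2.81, edgeR adjusted p = 3.98e-06). Ret, the signalling receptor for GDNF, was at 19.8 ± 6.50 and 31.6 ± 6.00 CPM (SD, n = 6), a difference of 0.67 on the log2 scale that missed the threshold (edgeR adjusted p = 0.0629).

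EphA4 also binds ephrin-B ligands, and of the 8 EphB receptor and ephrin-B genes tested 1 was called, Efnb2, a share of 12.5% against 10.2% of all tested genes. Its mean was 180.3 ± 42.7 CPM in controls and 90.2 ± 17.9 CPM in the libraries labelled Isl1CKO (SD, n = 6; edgeR adjusted p = 7.05e-04), and the groups did not overlap.

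For each called member, the 3 genes with the highest Pearson's r of log2(CPM + 1) over the 12 libraries are named as a description. These values are dominated by the difference between the groups, so r after centring on the group means is given beside them. For Epha5 they were Helt (r = 0.992, centred 0.608), Gm39168 (0.985, centred 0.047) and Peak1 (0.983, centred 0.503). For Efna5 they were Mn1 (0.985, centred 0.687), Serpinb8 (0.982, centred 0.652) and Lhx2 (0.982, centred 0.553). For Epha4 they were Vcan (0.978, centred 0.900), Dnm3 (0.978, centred 0.866) and Uts2b (0.969, centred 0.803). For Epha7 they were Ube2g1 (0.952, centred 0.819), Apc (0.946, centred 0.769) and Glrb (0.943, centred 0.755). For Epha3 they were Pck2 (0.903, centred 0.736), Nrcam (0.894, centred 0.694) and Shisa4 (0.889, centred 0.692). All 15 were called in the same direction as their member, which follows largely from choosing them by r over both groups and is no separate result.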

How the data were processed

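Whole-number counts per Ensembl gene, not normalized, were deposited by the authors as 1 table of 25674 genes and 12 libraries. The submitters' processing notes list cutadapt 1.18, Bowtie 1.2.2, STAR 2.7.0c, featureCounts and GRCm38.p6, with no role for each. The annotation release and the use of strand are not given in the sources used here. Symbols were found for 25620 identifiers, and coordinates and lengths are those of GENCODE M21 on the same build.

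edgeR 4.0.16 under R 4.3.3 compared the groups with its robust quasi-likelihood F-test, without covariates, after filterByExpr with a minimum count of 10 and TMM scaling. Calls use a Benjamini-Hochberg adjusted p under 0.05, computed over all genes tested. The standard error is the absolute log2 fold change over the square root of F. Levels are TMM-scaled CPM. The tests were checked on simulated counts. Limits taken from 3 counts cover counting error only. No library was present more than once. The members, lists and tests were chosen with earlier results of these data known. Named genes are Isl1, all members, the other EphA genes, called EphB and ephrin-B genes, called genes of the signalling lists and the 3 genes most like each called member. Alternatives were other scalings, filters, DESeq2 1.42.0, limma-voom (limma 3.58.1), robust estimation off, a replicate block, marker covariates, libraries left out, another length and a pseudocount of 0.1. Of 38 listed signalling genes, 37 had a row.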

Additional observations from a re-analysis of the deposited data

Results flagged for a closer look

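Among 26 group values checked in groups of 6 libraries (the tested members and the family sums and ratios), 1 value stood off from the remaining 5 by more than Dixon's 95% critical gap, and about 1.3 such values would arise by chance. Epha7 was at 282 CPM in control 4, against 204 to 233 CPM in the other 5 controls. Without control 4, the Epha7 log2 fold change was 0.75 (edgeR adjusted p = 9.11e-04).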

How the results depend on the processing

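The calls of Epha4, Epha5, Epha7 and Efna5 held in all 22 alternative fits, with log2 fold changes of -1.51 to -1.29, -1.99 to -1.89, 0.64 to 0.75 and 2.21 to 2.49. The number of members called was 4 to 6 throughout. The whole table gave 1511 calls, 929 with Schwann cell and macrophage marker levels as covariates and 767 without the libraries labelled Isl1CKO 2, 3 and 5. The DESeq2 Wald test called 11 of the 36 tested signalling genes in place of 6. It also called more over the whole table, 2100 of 14813 tested genes in place of 1511. The cause of either rise was not tested. The Epha8 log2 fold change of 0.12 turned to -0.099, -0.013 and -0.087 without controls 2, 5 and 6 and to -0.065 without Isl1CKO 5, and fits leaving out 1 library ran from -0.099 to 0.38. Among genes named for their likeness, Pck2 lost its call with the marker covariates and without Isl1CKO 2, 3 and 5, and Ube2g1 lost it in the latter. Same-numbered libraries showed no clear pairing. Correlations of their deviations ran from -0.056 to 0.155, and 2 of 6 libraries labelled Isl1CKO were most like their own number. With 6 numbers, this check cannot exclude pairing. With the replicate number as a block (replicate block), 1450 genes, 5 members and 5 signalling genes were called, and Anks1b alone among the called members and signalling genes lost its call. Among the members, counts were lowest for Efna1, Efna3, Efna4 and Epha8, with at most 151 in any library.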

Other observations

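Epha6, another EphA receptor gene, did not pass the filter on low counts and was unevenly spread over the libraries. It had 2, 3, 3, 0, 2 and 1 counts in controls 1 to 6, all at or under the limit of 3 counts. In the libraries labelled Isl1CKO 1 to 6 it had 50, 3, 145, 2, 3 and 8 counts. Libraries 1 and 3 of the latter therefore held most of the 211 counts of that group. The counts of Epha6 are uncertain too, because it shares exon sequence with the antisense gene Gm9017.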
